A study of Mus musculus with 45 samples.

Results

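The 10 genes described here, Btg4, Cnot1, Cnot6, Cnot6l, Cnot7, Cnot8, Zfp36l2, Zar1, Zar1l and Dcp1a, act on the poly(A) tails, storage and decay of maternal mRNA. They were taken by symbol from a table of 55357 mouse genes, each symbol matching 1 row, and were followed across 45 single-oocyte RNA-seq libraries. In reconstituted chimeric follicles (RCF), an oocyte is moved to the somatic cells of another, emptied follicle for culture. Such follicles held young oocytes and young somatic cells (YY, 11 libraries), aged oocytes and young somatic cells (AY, 6 libraries) or aged oocytes and aged somatic cells (AA, 12 libraries). Oocytes of young mice were the controls, either labelled as cultured in vitro (in vitro young, 8 libraries) or not cultured (in vivo young, 8 libraries). The labels name no genetic change in any group. Ages in numbers, strain, the animal behind each oocyte and the meiotic stage do not appear in the sources used here. Each library is labelled a biological replicate, so a p-value here reflects the spread among libraries alone, and that spread may be technical.

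A growing mouse oocyte stores mRNA, and it clears much of it in an ordered way once meiosis resumes. The CCR4-NOT complex shortens poly(A) tails: CNOT1 is its scaffold, CNOT6 or CNOT6L and CNOT7 or CNOT8 are its catalytic subunits, BTG4 is the oocyte adaptor that brings it to translated mRNA, and ZFP36L2 brings it to mRNA with AU-rich elements. ZAR1 and ZAR1L are RNA-binding proteins needed for storing maternal mRNA, and DCP1A is a co-activator of the decapping enzyme, which acts on mRNA whose tail has been shortened. Several mRNAs of this machinery are themselves kept dormant with short tails and are lengthened and translated during maturation through a cytoplasmic polyadenylation element (CPE), a U-rich motif near the 3′ end.

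The annotated 3′ ends of the members were searched for such motifs, because this element is the sequence feature through which dormant members are known to be switched on. The search covered the last 100 bases of 1 transcript per gene, on the transcript strand, for TTTTAT or TTTTAAT in the GENCODE M21 transcripts (build GRCm38). Of the 10 members, 8 had a 3′ end that could be read, and Cnot8 and Zar1l did not. Of these 8, Btg4, Cnot1, Cnot7 and Dcp1a held the motif, or 50%, against 17.8% of 19924 genes searched in the same way. Transcripts with a polyadenylation hexamer (AATAAA or ATTAAA) in this window were preferred, and Cnot1 had none. Motif and hexamer were both present in 3 members and in 15.0% of the genes searched. The 30-base runs that hold the motif are given 5′ to 3′ with the motif in capitals, together with the polyadenylation hexamer AATAAA where it lies in the run. Dcp1a held 2 matches, starting 67 and 43 bases from the end; the run shows the nearer, in which TTTTAAT and the hexamer share bases.
Btg4, chr9:51119484-51119513, plus strand: aaaaTTTTATgaacactagtgaatataggt
Cnot1, chr8:95719504-95719533, minus strand: aagatgtattgaTTTTATatatgtgagtac
Cnot7, chr8:40493036-40493065, minus strand: ttaaggtacaTTTTATatcAATAAAaatac
Dcp1a, chr14:30527011-30527040, plus strand: aaatatatttTTTTAATAAAatttcaaaac
A match is a description of letters and not a shown site. Cnot6, Cnot6l, Zar1 and Zfp36l2 held the hexamer but neither motif in this window, which says nothing of elements further from the end.

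Total counts per library ran from 418703 to 2201980. The 12 oocyte markers, among them Zp3, Gdf9 and Bmp15, summed to 14271 to 29536 CPM (counts scaled to a common library total) in each library. The 12 granulosa and cumulus markers summed to a median of 63.6 CPM in in vivo young, 89.3 in in vitro young, 76 in YY (60.9 to 104), 104 in AY (71.5 to 208) and 112 in AA (73.8 to 257), with Amh at 0 in every library. Single markers differed in direction. Inha had a median of 4.89 CPM in YY, 36.0 in AY and 38.4 in AA. Inhba had 1.95, 8.74 and 6.36, and Hsd17b1 had 0, 6.54 and 7.67. Nr5a2 (43.9, 34.0 and 35.7) and Kitl (2.93, 2.2 and 1.98) were lower in AY and AA than in YY. Cyp19a1 was at 15.9, 15.3 and 18.9. Theca and stroma markers reached at most 9.74 CPM in sum and immune markers at most 9.55 CPM. Endothelium and blood markers summed to 16.3 to 126 CPM, with Cdh5 and Hbb-bs at 0 throughout. The share of counts from mitochondrially encoded genes had a median of 0.118% in AA, 0.211% in AY and 0.232% in YY. The part of granulosa RNA or of the mitochondrial share in the results below was not tested.

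The YY libraries carry numbers from separate series, a first of S198 to S202 (5 libraries) and a second of S225 to S231 (6 libraries), and these stood apart. The mitochondrial share had a median of 0.106% in the first series and 0.392% in the second. For Cnot7, alone of the 10 members, the series did not overlap: the level was 784 to 1169 CPM in the first and 578 to 757 CPM in the second. The share of all genes whose series do not overlap was not counted. Numbers also break within in vitro young, within AY (after replicate 1) and within in vivo young (after replicate 2). In vivo young replicates 1 and 2 had Zar1 at 84.8 and 138 CPM, below every other library of that group. Their Cnot7 was at 1178 and 1222 CPM, where the other libraries of that group reached at most 1005 CPM. The labels do not say what the numbers stand for, and each group has numbers of its own, so series and group cannot be told apart. Member calls between AA and YY are also given against each YY series alone, as are selected results of the other comparisons with YY. Libraries also fell into sets by 7 genes that were either present or nearly absent, with 2 such patterns in AA, 2 in AY and 4 in YY. No pattern was shared between AA, AY and YY, or between the YY series. Among AA, AY and YY the patterns therefore lie within a group, and pattern and group cannot be told apart there. The patterns of the first YY series also occurred in control libraries, and those of the second did not. Results are given with the libraries of a pattern summed to 1 sample where that changed a call, a check chosen after the data were seen.

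Levels are CPM scaled with edgeR's TMM factors over the 45 libraries. They are shares of a library, so less of an mRNA and more of the other RNA in an oocyte cannot be told apart. Per kilobase of exon, the medians over all libraries were 1637 CPM for Btg4, 677 for Zar1l, 147 for Cnot7, 95.4 for Cnot8, 78.7 for Dcp1a, 71.4 for Zar1, 29.1 for Cnot6l, 2.81 for Cnot6, 2.47 for Cnot1 and 0.693 for Zfp36l2. The adaptor Btg4 was therefore the most abundant of the 10 mRNAs on this scale, and the scaffold Cnot1 lay below Cnot7, Cnot8 and Cnot6l. The lengths merge all annotated exons of a gene in GENCODE M21, 17.169 kb for Cnot1 and 6.610 kb for Cnot6. The transcripts whose ends were searched were 8390 and 5736 bases long, so the order of Cnot1 and Cnot6 depends on the length used. The same holds for Dcp1a and Zar1, with merged exons of 8.230 and 3.465 kb and searched transcripts of 5576 and 1429 bases. For Cnot8 and Zar1l no such transcript was read, so their places rest on merged exons of 2.636 and 0.895 kb alone. Between groups the ranges of a gene overlapped in nearly every case. Of the 10 pairs of groups for each gene, the exception was Cnot8 between in vitro young and AA, so neighbours in the orders given below are not set apart by their ranges. How often ranges part over all genes was not counted.

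**Figure D1:**
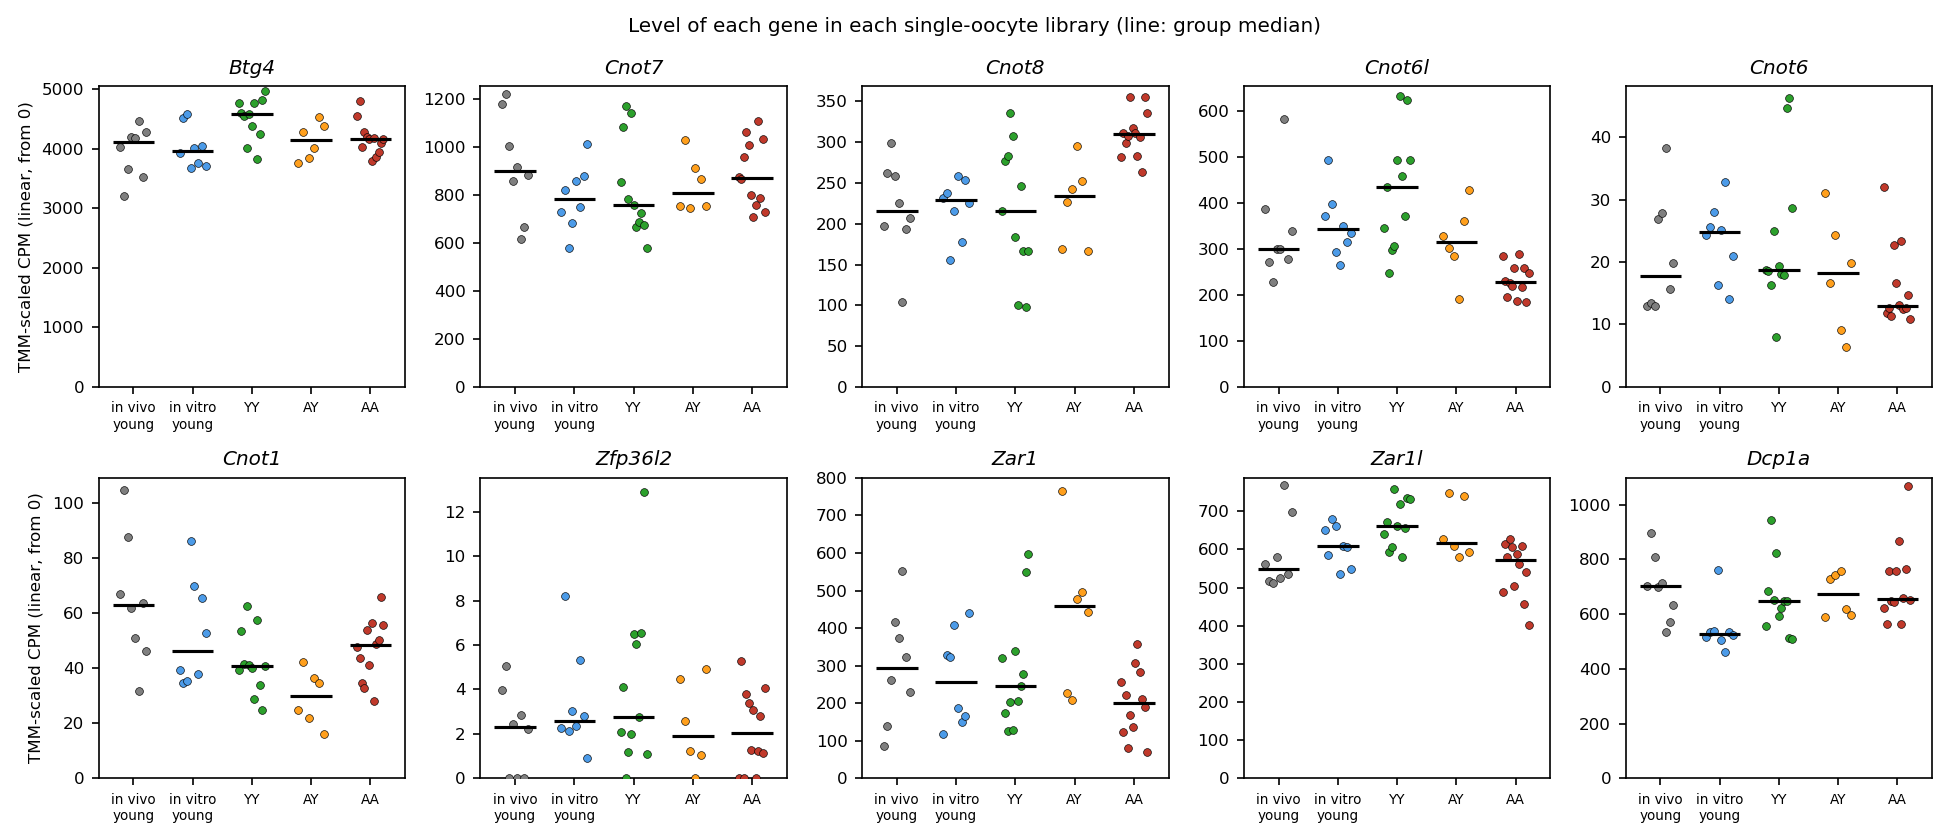
Level of the 10 genes (TMM-scaled CPM, linear axis from 0) in each of the 45 libraries, with 1 point per oocyte and a line at the group median. Btg4 lies between 3207 and 4967 CPM in every library, Zar1 spreads from 69.4 to 766 CPM, and the 12 AA libraries sit low for Cnot6l and high for Cnot8.

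Btg4 (chromosome 9, 50972201 to 51031176, mm39) varied least. Its level was 3207, 4111 and 4471 CPM (lowest, median and highest library) in in vivo young and 3679, 3969 and 4579 in in vitro young. It was 3826, 4577 and 4967 in YY, 3757, 4148 and 4538 in AY and 3802, 4165 and 4811 in AA. The coefficient of variation within a group was 6.77% in AA to 11% in in vivo young, and YY had the highest median. Zar1 (chromosome 5, 72734149 to 72738598) had a coefficient of variation of 45% in AA to 54.6% in YY, and the scarce Cnot6 one of 26.1% in in vitro young to 52% in AY. Zfp36l2 (chromosome 17, 84491359 to 84495376) was close to the detection limit, with 0 to 14 counts per library and a median of 2.45 CPM over all libraries. A count of 3 is worth 1.36 to 7.16 CPM here, so Zfp36l2 was left out of the tests by the filter on low counts, and no difference in it was detectable at this depth. The other 9 members passed the filter in every comparison.

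The comparison of AA with YY sets oocytes aged together with their somatic cells against young ones. Cnot6l, a catalytic deadenylase subunit, and Zar1l, the storage factor, were lower in AA, and Cnot8, the other type of catalytic subunit, was higher. The remaining 6 tested members, Btg4, Cnot1, Cnot6, Cnot7, Zar1 and Dcp1a, did not pass the test. These 3 calls among 9 tested members make 33.3%, where 27.5% of the 8533 genes tested were called in this comparison, so the share of members called was near the background. The median log2 fold change was -0.12 over the 9 members and -0.01 over all tested genes.

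Cnot6l (chromosome 5, 96218192 to 96312031) had levels of 184, 228.2 and 290 CPM (lowest, median, highest) in AA and 249, 435 and 633 CPM in YY. All 12 AA libraries lay below the YY median and 8 of them below every YY library. The fitted log2 fold change was -0.90 ± 0.14 (SE), a level 0.536 times that of YY (edgeR quasi-likelihood test, adjusted p = 1.53e-05). Its level differed between the YY series: it was 249, 307 and 435 CPM in the first and 373, 494 and 633 CPM in the second. Against the first alone the log2 fold change of Cnot6l was -0.49 (edgeR, adjusted p = 0.0229), and against the second alone it was -1.17 (edgeR, adjusted p = 1.84e-09). The call was therefore kept against either series. With libraries of a pattern summed the change was -0.85 and was not called (edgeR, adjusted p = 0.163).

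Cnot8 (chromosome 11, 57994979 to 58009421) had levels of 263, 309 and 356 CPM in AA and 97.9, 216 and 336 CPM in YY. All 12 AA libraries lay above the YY median, but only 3 lay above every YY library. The log2 fold change was 0.51 ± 0.16 (edgeR, adjusted p = 0.0129). This call rested on the second YY series, at 97.9, 166 and 246 CPM, all below the lowest AA library. The first series, at 216, 283 and 336 CPM, overlapped AA, and against it alone the change was 0.12 and was not called (edgeR, adjusted p = 0.596). Against the second alone it was 0.94 (edgeR, adjusted p = 2.92e-06). With patterns summed it was 0.51 (edgeR, adjusted p = 0.426).

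Zar1l (chromosome 5, 150430520 to 150441630) had levels of 401, 571 and 627 CPM in AA and 580, 661 and 757 CPM in YY. All 12 AA libraries lay below the YY median and 6 below every YY library. The log2 fold change was small, -0.30 ± 0.07 (edgeR, adjusted p = 0.00203). Against the first YY series alone it was -0.26 and was not called (edgeR, adjusted p = 0.0779), and with patterns summed it was -0.23 (edgeR, adjusted p = 0.456). Against the second YY series alone it was -0.34 (edgeR, adjusted p = 0.00133). All 3 calls were kept when any library was left out in turn.

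**Figure D2:**
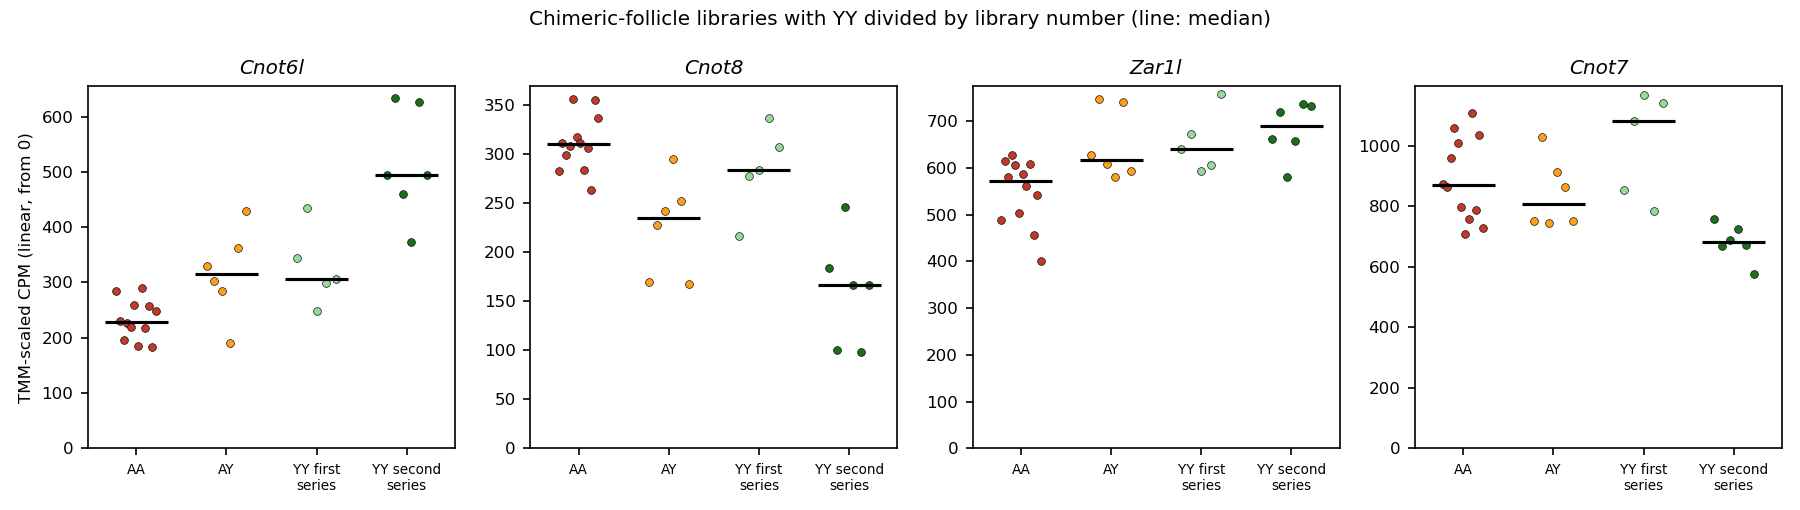
Level of Cnot6l, Cnot8, Zar1l and Cnot7 (TMM-scaled CPM, linear axis from 0) in each AA, AY and YY library, with YY divided by library number into its 2 series and a line at each median. For Cnot8 the first YY series lies at 216 to 336 CPM, near AA at 263 to 356 CPM, while the second lies at 97.9 to 246 CPM.

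Of the members that did not pass, Cnot6, the related subunit to Cnot6l (chromosome 11, 49562330 to 49603551), was scarce. It had 10.9, 12.9 and 32.0 CPM in AA and 8.05, 18.7 and 46.2 CPM in YY, with a log2 fold change of -0.61 ± 0.25 (edgeR, adjusted p = 0.0701). Without YY replicate 3, YY replicate 5, AA replicate 1 or AA replicate 8 it was called, with an adjusted p down to 0.0236 in edgeR, so its place relative to the threshold depended on single libraries. Zar1 had 69.4, 200 and 357 CPM in AA and 127, 247 and 597 CPM in YY, and its change of -0.55 had an interval from -1.14 to 0.04. Btg4 changed by -0.12 (interval -0.23 to -0.01; edgeR, adjusted p = 0.107), and without YY replicate 8 it was called (edgeR, adjusted p = 0.0425). For the scaffold Cnot1 the change was 0.15 (interval -0.17 to 0.47), for Cnot7 0.09 (-0.11 to 0.29) and for Dcp1a 0.11 (-0.08 to 0.30). Against the second YY series alone 7 of the 9 members were called, and against the first alone only Cnot6l was. Calls over all genes went in the same directions, from 2348 to 3151 against the second series and to 451 against the first. The rise among the members, from 3 to 7, rests on 9 genes, so no weight is placed on its size relative to that over all genes. Of the added calls against the second series, Dcp1a (edgeR, adjusted p = 0.0476) and Zar1 (edgeR, adjusted p = 0.0305) lay near the threshold. Cnot6 (edgeR, adjusted p = 0.00657) and Cnot7 (edgeR, adjusted p = 0.00192) lay further from it.

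**Figure D3:**
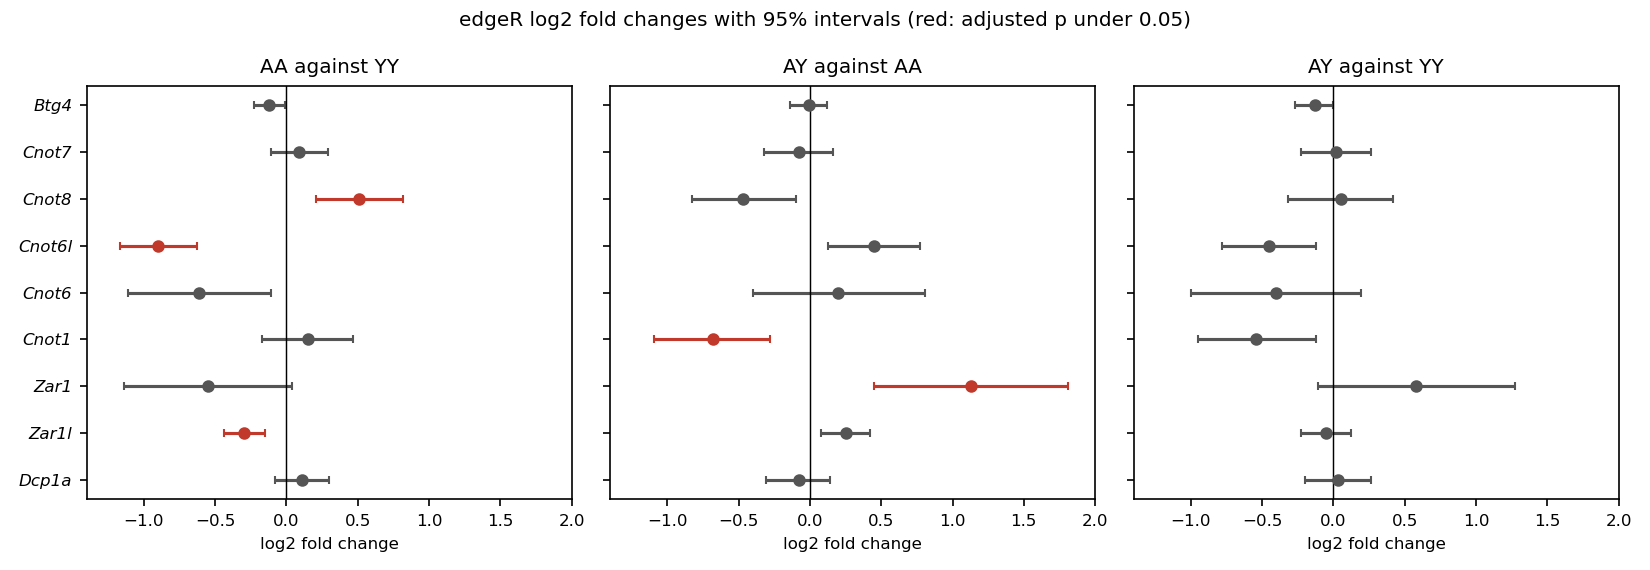
Log2 fold change of the 9 tested members with its 95% interval from edgeR in the 3 comparisons among chimeric follicles, with members of adjusted p under 0.05 in red. Cnot6l at -0.90, Zar1l at -0.30 and Cnot8 at 0.51 are red for AA against YY, Cnot1 at -0.68 and Zar1 at 1.13 are red for AY against AA, and no member is red for AY against YY.

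The comparison of AY with AA keeps the oocyte aged and changes the somatic cells from aged to young. Zar1, the storage factor, was higher in AY, and the scaffold Cnot1 was lower. These 2 calls are 22.2% of the 9 tested members, where 6.59% of the 8533 genes tested were called. The median log2 fold change of the members was -0.01, against 0.00 over all tested genes. This comparison shares the AA libraries with the one before, so the directions of the same gene in both are not independent.

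Zar1 in the AY libraries was 766, 227, 208, 478, 495 and 442 CPM in replicates 1 to 6, and in AA it was 69.4, 200 and 357 CPM (lowest, median, highest). The AY libraries fell into 4 that lay above every AA library and 2, replicates 2 and 3, that lay within the AA range. The log2 fold change was 1.13 ± 0.35 (edgeR, adjusted p = 0.0462), 2.19 times the AA level. The call was lost in 15 of 29 fits that left out 1 library, with an adjusted p of up to 0.192 in edgeR. These libraries were YY replicates 1, 6 and 9, AY replicates 1, 4, 5 and 6, and AA replicates 2, 3, 4, 5, 6, 10, 11 and 12.

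Cnot1 (chromosome 8, 96446079 to 96534093) had levels of 16.1, 29.8 and 42.3 CPM in AY and 28.0, 48.4 and 65.8 CPM in AA. All 6 AY libraries lay below the AA median and 3 below every AA library. Counts were low, at 13 to 33 per AY library. The log2 fold change was -0.68 ± 0.21 (edgeR, adjusted p = 0.0378), and the call was lost without AY replicate 1, 3 or 6 or AA replicate 5, 7, 9, 11 or 12, with an adjusted p of up to 0.13 in edgeR. Neither Zar1 nor Cnot1 was called with all 45 libraries in the fit, with a covariate for the genes detected in each library, or with patterns as a random block or summed, and Zar1 was not called with no filter on low counts.

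The members called between AA and YY lay near the threshold in this comparison and did not pass it in the fit of the 3 groups. Cnot6l had 191, 316 and 429 CPM in AY, with 4 of 6 libraries above every AA library, and a log2 fold change of 0.45 ± 0.16 (edgeR, adjusted p = 0.0875). Without AY replicate 4 it was called, with an adjusted p of 0.0297 in edgeR. Cnot8 had 167, 235 and 295 CPM in AY, with 5 of 6 libraries below every AA library, and a change of -0.47 ± 0.19 (edgeR, adjusted p = 0.133). Zar1l had 580, 617 and 747 CPM in AY, with all 6 libraries above the AA median, and a change of 0.25 ± 0.09 (edgeR, adjusted p = 0.0756). For Btg4 the interval of the change was -0.14 to 0.12, and for Cnot7 (chromosome 8, 40945581 to 40968889) it was -0.32 to 0.16. With only AY and AA in the edgeR fit, Cnot6l (adjusted p = 0.00789), Cnot8 (adjusted p = 0.00256) and Zar1l (adjusted p = 0.0449) were all called. With no filter on low counts Cnot6l and Cnot8 were called, with limma voom Cnot8 and Zar1l, and with DESeq2 Zar1l.

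For AY against YY, which changes the age of the oocyte within young somatic cells, no member was called by edgeR. An unadjusted p under 0.05 was found for 2 of the 9 members and for 14.1% of all tested genes. In this comparison 1.62% of the 8533 tested genes were called, 0.715% higher and 0.902% lower. Cnot6l was 0.45 log2 lower in AY (-0.45 ± 0.17; edgeR, adjusted p = 0.205), with all 6 AY libraries below the YY median, and Cnot1 was at -0.54 ± 0.21 (edgeR, adjusted p = 0.227). DESeq2 called 0 members and limma voom 0. Against the second YY series alone Cnot6l was called at -0.71 (edgeR, adjusted p = 0.00133), and against the first YY series alone no member was. Against the first series the change of Cnot6l was -0.03 (edgeR, adjusted p = 0.954). The median of Cnot6l was 435 CPM in YY, 316 in AY and 228.2 in AA, but the first YY series, at 307 CPM, did not lie above AY. With no filter on low counts edgeR called Cnot6l in AY against YY (-0.43, adjusted p = 0.0288).

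The controls set young oocytes apart by culture and by follicle reconstitution. Library numbers break within both control groups too, and no fit divided these groups by number. Between in vitro young and in vivo young no member was called by edgeR, and 12 of 8749 genes were, or 0.137% (0.126% higher and 0.0114% lower). Of all tested genes 9.65% had an unadjusted p under 0.05, and of the members only Dcp1a (chromosome 14, 30201492 to 30249021) did. Its level was 461, 528 and 762 CPM in in vitro young and 535, 701 and 895 CPM in in vivo young, with 6 of 8 cultured libraries below every uncultured library, and its log2 fold change was -0.35 ± 0.12 (edgeR, adjusted p = 0.259). DESeq2 and limma voom called no member here either.

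Between YY and in vitro young no member was called by edgeR, where 2.48% of tested genes were (0.777% higher and 1.7% lower). Btg4 and Dcp1a had an unadjusted p under 0.05, as had 16.6% of all tested genes. Btg4 had a log2 fold change of 0.19 ± 0.07 (edgeR, adjusted p = 0.166), with 10 of 11 YY libraries above the in vitro median, and limma voom called it (adjusted p = 0.0371) where DESeq2 called no member. Dcp1a had 509, 647 and 943 CPM in YY and a change of 0.29 ± 0.11 (edgeR, adjusted p = 0.157). Cnot6l had 265, 343 and 494 CPM in in vitro young and a median of 300 and a highest level of 584 CPM in in vivo young, whose lowest library lay just above the AA median. Against in vitro young the second YY series alone was called higher for Cnot6l, by 0.58 (edgeR, adjusted p = 0.0242), and the first was at -0.09 (edgeR, adjusted p = 0.863). For Cnot8 the change between YY and in vitro young was 0.00 with an interval of -0.40 to 0.40.

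CNOT7 and CNOT8 take the same place in the complex, as do CNOT6 and CNOT6L, and ZAR1 and ZAR1L are close relatives, so the division of reads within each pair was compared. Such a share does not depend on the scaling of libraries. Cnot7 made up 73.9% ± 3.0 of the reads of Cnot7 and Cnot8 in AA (SD, n = 12), 79.7% ± 5.0 in YY (n = 11), 79.0% ± 3.17 in AY (n = 6), 78.1% ± 2.14 in in vitro young (n = 8) and 80.8% ± 3.57 in in vivo young (n = 8). The AA mean was thus the lowest of the 5, and its range of 68.4% to 78.4% overlapped that of AY, 75.5% to 81.9%.

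The share of Cnot7 was lower in AA than in YY (a difference of -5.74 with p = 0.00279 in a two-sided permutation test and an adjusted p of 0.0356 over 15 such tests). It was 5.07 points higher in AY than in AA (two-sided exact permutation test, p = 0.00474, adjusted p = 0.0356). Against the first YY series alone the difference of AA was -3.84 and did not pass (exact permutation test, adjusted p = 0.2). Against the second alone it was -7.31 (exact permutation test, adjusted p = 0.021). The AA-to-YY difference also failed without AA replicate 2, 5, 6, 8 or 11, and the AY-to-AA difference without any of these or without AY replicate 1, 2 or 6. Cnot7 and Cnot8 were counted over different transcripts, so the share is one of reads and not of molecules.

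**Figure D4:**
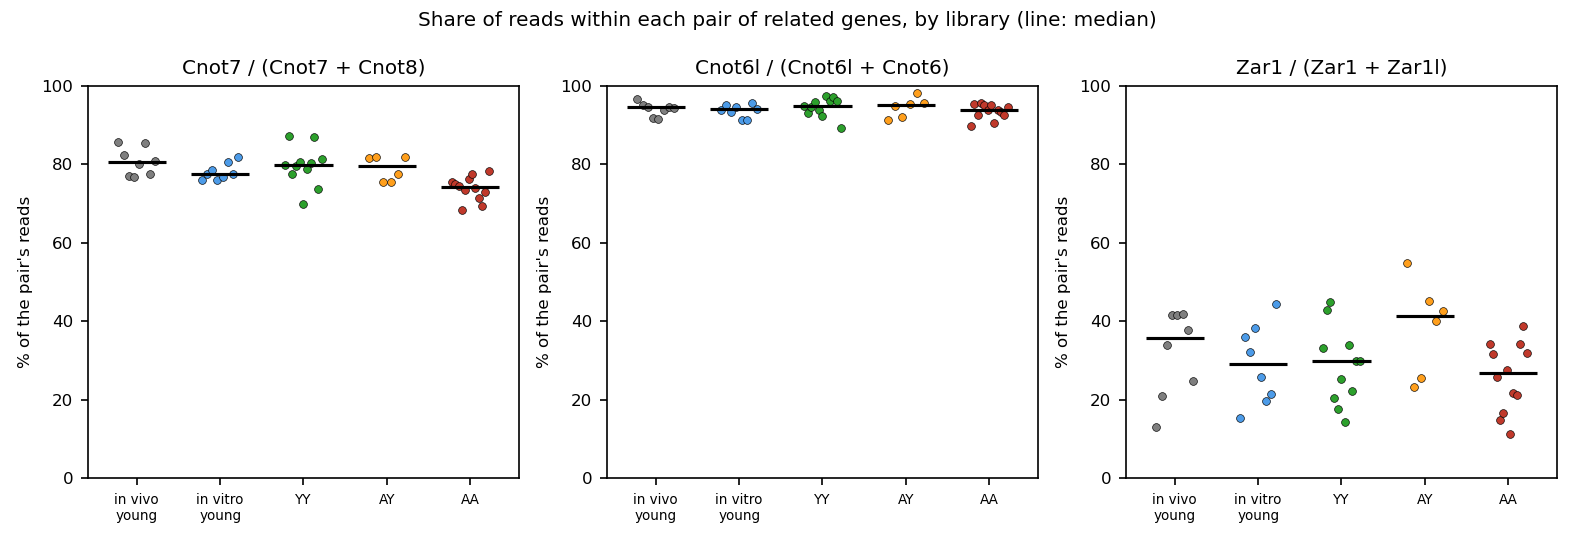
Percent of a pair's reads that came from Cnot7, Cnot6l and Zar1 in each library, on axes from 0 to 100, with a line at the group median. Cnot6l holds about 94% in every group, the AA libraries lie lowest for Cnot7 with a median of 74.2%, and the share of Zar1 spreads from 11.4% to 55.0%.

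Cnot6l made up 93.6% ± 1.88 of the reads of its pair in AA and 94.6% ± 2.41 in YY, and none of the 5 comparisons of its share passed, with differences of -1.06 to 1.02 points (lowest adjusted p = 0.626, permutation test). Cnot6 was the minor member of the pair in every library. Zar1 made up 38.6% ± 12.1 of the reads of Zar1 and Zar1l in AY and 25.8% ± 8.74 in AA, a difference of 12.8 points that did not pass after adjustment (exact permutation test, p = 0.0208, adjusted p = 0.104).

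The rest of the decay machinery was described from 8 lists of 92 genes in the table, of which 77 were tested. In AA against YY 8 of the 77 were higher and 25 lower, against 12.8% and 14.7% of all tested genes, and their median log2 fold change was -0.11. The RNA-binding adaptors and stabilisers made up much of this, with 1 of 17 higher and 10 lower. Among them Tnrc6b, a scaffold of microRNA silencing that binds CCR4-NOT, fell from a median of 89.5 CPM in YY to 49.3 CPM in AA (-0.97 ± 0.13; edgeR, adjusted p = 6.89e-07). Cpeb1, the protein that binds the CPE, rose from 941 to 1459 CPM (0.53 ± 0.13; edgeR, adjusted p = 0.00234). The others of this list that fell were Igf2bp2, Ybx1, Samd4b, Ybx2, Tnrc6a, Pum2, Khsrp, Tnrc6c and Celf1.

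Among the 6 other CCR4-NOT subunits Cnot9 and Cnot10 were higher and Cnot3 and Cnot11 lower in AA. Cnot3 had a median of 63.5 CPM in AA and 118 CPM in YY, and its ranges of 50.1 to 77.1 and 83.4 to 151 CPM did not overlap (-0.88 ± 0.14; edgeR, adjusted p = 1.53e-05). Cnot9 changed by 0.43 ± 0.11 (edgeR, adjusted p = 0.00431). Of the 4 tested genes of the BTG and TOB family, which like Btg4 link deadenylases to mRNA, Tob2, Btg1 and Tob1 were lower, Tob2 by -0.72 ± 0.13 (edgeR, adjusted p = 6.89e-05). Of 7 genes listed as other deadenylases or their relatives by family, Noct was lower (-1.35 ± 0.26; edgeR, adjusted p = 0.000401), as was Angel1. Angel2 (0.42 ± 0.12; edgeR, adjusted p = 0.0102) and Parn were higher.

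Of 11 tested decapping and P-body genes, 1 was higher and 3 were lower. Patl2, an RNA-binding protein of the oocyte, changed by 0.58 ± 0.13 (edgeR, adjusted p = 0.00116), and Dcp2, the decapping enzyme that DCP1A activates, by -0.60 ± 0.11 (edgeR, adjusted p = 0.000128), with Lsm14a and Lsm14b also lower. Of 16 genes of the exosome and of uridylation only Exosc10, a nuclear exosome nuclease, was called, at 0.70 ± 0.11 (edgeR, adjusted p = 1.62e-05). Among 8 poly(A)-binding proteins and polymerases Tent4a was at -0.70 ± 0.13 (edgeR, adjusted p = 6.1e-05), with Pabpc1l and Tent4b also lower, and Papolg at 0.34 ± 0.13 (edgeR, adjusted p = 0.048). Of 8 nonsense-mediated decay genes 2 were lower, among them Smg6.

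These calls too depended on which YY libraries were used. Against the first YY series alone 6 of the list genes were called in place of 33, and with patterns summed 0 were, where calls over all genes went from 2348 to 451 and to 2. With patterns summed the log2 fold changes were of similar size, such as -0.90 for Tnrc6b, -0.84 for Cnot3 and 0.72 for Exosc10. Of the genes given with values, Cnot3 (-0.75), Tnrc6b (-0.71), Dcp2 (-0.47) and Exosc10 (0.43) were still called against the first YY series. Papolg was at -0.04 there, so its direction turned. The call of Papolg was also lost without any 1 of the AY libraries, of YY replicates 6 to 11 or of the AA libraries other than replicates 3 and 8.

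In AY against AA 6 of the 77 list genes were higher and 2 lower, against 3.52% and 3.07% of all tested genes. Tob2 was at 120 CPM in the median AY library and 77.3 CPM in the median AA library (0.62 ± 0.15; edgeR, adjusted p = 0.0116), and Tob1 was also higher. Samd4b, of the Smaug family of decay adaptors, was at 19.1 and 6.53 CPM (1.24 ± 0.32; edgeR, adjusted p = 0.0168), and Ybx1, Tnrc6a and Tnrc6c were higher too. Exosc10 (-0.47 ± 0.14; edgeR, adjusted p = 0.0313) and Angel2 (-0.49 ± 0.15; edgeR, adjusted p = 0.0426) were lower in AY. Leaving out 1 library gave 1 to 9 calls, and the count moved by more than 1.5 times without AY replicate 1, 5 or 6 or AA replicate 5, 7 or 12. The call of Tob2 was lost without AY replicate 1, and that of Exosc10 without AY replicate 1, 5 or 6 or AA replicate 7 or 12. The call of Angel2 was lost in 13 of 29 fits, those without YY replicate 2 or 6, AY replicate 1, 4, 5 or 6, or AA replicate 3, 4, 5, 6, 7, 9 or 11. The 8 calls became 13 with limma voom, 13 with only AY and AA in the fit, 5 with all 45 libraries, 5 with the covariate for genes detected, and 0 with patterns as a random block or summed.

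In AY against YY Smg6 was the only one of the 77 list genes called, where 1.62% of all tested genes were, and it was lower. Against the second YY series alone 18 list genes were called, where calls over all genes went from 138 to 847. In YY against in vitro young it was Dcp2, and in in vitro young against in vivo young it was Lsm1, a subunit of the ring that promotes decapping, both higher in the first group. For YY against in vitro young the second YY series alone gave 14 list genes, where calls over all genes went from 217 to 803, and the first gave 0. These 3 genes were named because they were the only ones called.

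The genes nearest in pattern over the 45 libraries were sought among 3494 genes of at least 50 CPM on average, by the root mean square difference of centred log2 CPM. For Btg4 they were Ube2t (0.117), Txndc9 (0.127) and Mphosph6 (0.128), hardly nearer than a flat line, from which Btg4 itself departed by 0.133. For Cnot6l, which departed from its mean by 0.449, they included Siah2 (0.198) and Suz12 (0.198). For Zar1, which departed by 0.791, they were Asf1a (0.391), Pole4 (0.399) and Fam104a (0.434). The libraries share groups and numbering series, so such a likeness holds the differences between them.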

How the data were processed

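The deposited table holds whole-number read counts per gene, not normalized, that the authors made from single-oocyte libraries (NEBNext Single Cell/Low Input kit, without molecular identifiers). The tools named per the submitters' processing notes are HTSeq 0.11.0 and STAR 2.7.8a, with build mm39. Whether counting used strand, and how reads shared with near-identical copies were treated, does not appear in the sources used here. Gene coordinates are those of the table. Libraries of the same group always differed by more than counting noise (chi-square over degrees of freedom at least 1.98).

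The test was edgeR 4.0.16 (R 4.3.3) with TMM scaling, genes filtered by filterByExpr at its minimum count of 10 and total of 15, robust quasi-likelihood tests, and p-values adjusted after Benjamini and Hochberg over every tested gene. A gene is called where that value is under 0.05. AA, AY and YY were fitted together, and YY and the controls in a separate fit. Standard errors come from the F statistic, and intervals are at 95%. Shares were compared with permutation tests, exact or, for AA against YY, with 100000 resamples. In data simulated for AA against YY (8295 genes), the fit recovered 37.3% of 1.5-fold, 82.9% of 2-fold and 100% of 4-fold changes with 4 false calls. The simulated libraries of a group were drawn independently, without series or patterns. These figures therefore do not give the rate of false calls where libraries fall into such sets.

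Alternatives used DESeq2 1.42.0, limma 3.58.1 voom and the settings in the closing section. From each list the called gene of smallest p per direction was given with values in AA against YY and AY against AA, and the 3 nearest genes were sought for Btg4, Cnot6l and Zar1. Some genes that these rules take are left out of the text, and counts include them. List genes named without values, and Smg6, Dcp2 and Lsm1 in the last 3 comparisons, were picked with their values in view. The members and lists were chosen with earlier results of these data known.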

Additional observations from a re-analysis of the deposited data

Results flagged for a closer look

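Of 39 sets of values (a member or the share of a pair in a group of up to 10 libraries), 2 had a library far from the others of its group. Cnot6l in in vivo young replicate 6 was at 584 CPM, where the next highest library was at 387 CPM, a gap of 0.555 of the group's range. Dcp1a in in vitro young replicate 4 was at 762 CPM, where the next highest was at 538 CPM, a gap of 0.745 of the range. Chance puts about 1 in 20 groups past the limit used.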

How the results depend on the processing

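Member calls in AA against YY (3) became 1 with the first YY series, 7 with the second YY series and 0 with patterns summed, where calls over all genes (2348) became 451, 3151 and 2. In AY against AA (2) they became 4 with limma voom, 5 with only the compared groups in the fit, 4 with the replicate block, 0 with all 45 libraries, 0 with genes detected as a covariate, 0 with patterns as a random block, 0 summed, and 0 to 2 without 1 library. Calls over all genes there (562) became, in the same order, 831, 876, 1078, 512, 420, 80 and 1. List genes called became 13 with the replicate block there (8) and 0 in AY against YY (1). Apart from the second YY series, the alternatives gave 0 to 3 list genes in AY against YY and 0 to 4 in YY against in vitro young. In AY against YY (0) they became 1 with no filter and 1 with the second YY series, and in YY against in vitro young (0) 1 with limma voom and 1 with the second YY series. The planned 10 CPM filter kept more genes than the one used, so a 50 CPM filter was added after the data were seen. Same-numbered libraries did not deviate together throughout. The correlation was over 0.1 in 2 of 11 pairs for AA against YY (-0.15 to 0.32) and 3 of 6 for AY against AA (-0.12 to 0.15). It was so in 3 of 6 for AY against YY (-0.22 to 0.35), 1 of 8 for YY against in vitro young and 3 of 8 between the controls (-0.19 to 0.35). The numbers were not taken as pairs in the main fit. The cause of these changes was not tested.

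The reversals were of values that were not called, except, among the genes named here, Papolg. With the first YY series the log2 fold changes of AA against YY were Cnot1 -0.03, Cnot7 -0.18, Zar1 0.08, Dcp1a -0.05 and Papolg -0.04. Those of AY against YY were Cnot6 0.11, Cnot7 -0.25, Cnot8 -0.34 and Dcp1a -0.12, and those of YY against in vitro young Cnot6 -0.43, Cnot6l -0.09 and Zar1 -0.46. The second series gave Cnot7 -0.17 and Cnot8 -0.42 for YY against in vitro young. In that comparison Cnot8 was -0.11 with limma voom, -0.03 with no filter, -0.27 with the covariate (Cnot7 -0.02) and -0.08 with the random block (Cnot6 -0.02). With the replicate block Cnot6 was -0.38 and Zar1 -0.22 there, and Cnot7 -0.10 and Cnot8 -0.09 in AY against YY. Patterns summed gave Cnot7 -0.09, Cnot8 -0.11 and Dcp1a -0.07 in AY against YY, and Zar1l -0.0028 between the controls, where limma voom gave Cnot8 -0.0079. The random block gave Dcp1a -0.0022 in AY against YY. Btg4 in AY against AA was 0.03 at 50 CPM, 0.0014 with only these groups and 0.0017 with the random block.

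Leaving out 1 library gave ranges through 0 for Btg4 (-0.03 to 0.03) and Cnot6 (-0.04 to 0.39) in AY against AA, and Cnot7 (-0.04 to 0.08), Cnot8 (-0.04 to 0.14) and Dcp1a (-0.0054 to 0.09) in AY against YY. So it did for Cnot6 (-0.08 to 0.18), Cnot8 (-0.08 to 0.08) and Zar1 (-8.7e-05 to 0.31) in YY against in vitro young, and Btg4 (-0.01 to 0.05), Cnot6l (-0.02 to 0.22), Cnot8 (-0.10 to 0.09) and Zar1 (-0.32 to 0.01) between the controls. Shares of Cnot7 ranged over -6.7 to -4.97 points (AA against YY), 4.48 to 5.77 (AY against AA) and -1.63 to 0.0967 (AY against YY), of Zar1 over 9.52 to 15.8 (AY against AA; past the threshold without AY replicate 3) and -2.54 to 1.61 (YY against in vitro young), and of Cnot6l over -0.778 to 0.608 (AY against YY). With the first YY series the share differences were Cnot7 -3.84 (AA against YY), 1.22 (AY against YY) and -0.368 (YY against in vitro young) and Zar1 3.62 (AA against YY). With the second YY series they were Cnot6l 0.158 (AY against YY) and Zar1 4.74 (YY against in vitro young). Depth limits Zfp36l2, Cnot6 and Cnot1.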
